A study of Mus musculus with 7 samples.

Results

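A set of 10 SOX genes of neural stem cells and glia was followed through bulk RNA-seq of 2 mouse glioblastoma (GBM) models, namely *Sox2*, *Sox3*, *Sox4*, *Sox5*, *Sox6*, *Sox8*, *Sox9*, *Sox10*, *Sox11* and *Sox21*. They were taken by gene name from a raw count table of 49492 genes, and all 10 were found there. *Sox2* holds 0 counts in every library and was read from the FPKM table (Cufflinks fragments scaled to exon length and to mapped fragments). The NPCTKO model was made by electroporating embryonic neocortical progenitors in utero with piggyBac plasmids that carried Cas9, luciferase, single-guide RNAs against tumor suppressor genes, *Trp53* and *Nf1* among them, and an EGFP or DsRed label. Its 4 libraries were made from EGFP+ or DsRed+ tumor cells sorted by FACS. The NSCHRas-shp53 model was made by injecting the ventricular-subventricular zone of adult mice with lentivirus that carried a *Trp53* short hairpin RNA and a constitutively active human *HRAS*. Its 3 libraries were made from whole tumor tissue, with no sort. Inactivation or knockdown of *Trp53* was thus shared by both models, and the labels give strain C57BL/6, an age of 3 months and GBM cells as the source for all 7 libraries. The founding cell, the genetic lesion and the sort differ at once between the models, so their parts cannot be told apart. The methods also name a mouse line on a mixed C57BL/6 and CD-1 background, and tie no line to a library. The study writes of separate samples or tumors, whereas the design text speaks of duplicates, and neither ties a library to an animal. P-values therefore cover only the variation among these libraries, part of which may be technical.

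SOX proteins bind short DNA sites through a shared HMG box and are grouped by its sequence. SOX2 and SOX3 (group B1) keep neural stem cells in their state, and SOX21 (group B2) counters them. SOX9, SOX8 and SOX10 (group E) act in glia, SOX9 at the onset of gliogenesis and in astrocytes, SOX10 throughout the oligodendrocyte lineage with SOX8 beside it. SOX5 and SOX6 (group D) lack a transactivation domain and restrain the maturation of oligodendrocyte precursors, while SOX4 and SOX11 (group C) act in newborn neurons.

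The SOXE genes carry the opposite patterns described first, and their similarity sets what reads can tell apart. A stretch of 90 bases inside the HMG box coding sequence is printed for each of them, read from the GENCODE M21 transcripts on GRCm38 (mm10), with capitals at positions that are not the same in all 3 genes. It lies at chr17:25570128-25570217 on the minus strand in *Sox8*, at chr11:112782908-112782997 on the plus strand in *Sox9* and at chr15:79163307-79163396 on the minus strand in *Sox10*. These are exon 1 of 3, exon 1 of 3 and exon 3 of 5, respectively.
Sox8: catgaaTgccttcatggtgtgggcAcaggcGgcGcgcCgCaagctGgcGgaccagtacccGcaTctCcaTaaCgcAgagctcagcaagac
Sox9: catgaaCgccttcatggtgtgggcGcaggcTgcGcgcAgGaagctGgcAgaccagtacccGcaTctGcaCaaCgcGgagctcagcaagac
Sox10: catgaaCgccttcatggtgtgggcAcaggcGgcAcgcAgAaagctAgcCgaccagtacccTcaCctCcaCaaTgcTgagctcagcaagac
In this window 76 of 90 bases were the same in all 3 genes, 81 between *Sox8* and *Sox9*, and 79 between *Sox10* and either of the others. The longest run shared between transcripts of any 2 members was 48 bases, between *Sox4* and *Sox11*. *Sox9* and *Sox10* shared at most 44 bases and *Sox2* and *Sox21* at most 38. All of these runs are shorter than the reads, which the labels give as 150 bases.

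The total counts ranged from 15002873 to 19247326 in NPCTKO and from 17529054 to 19840860 in NSCHRas-shp53 libraries, and 3 counts correspond to 0.130 to 0.234 CPM (counts scaled to library size with TMM factors), a floor that covers counting error only. NPCTKO libraries fell into 2 pairs. Over all 49492 genes in log2(CPM + 1), those with 0 counts included, libraries 1 and 2 had a Pearson correlation of 0.991. Libraries 3 and 4 had one of 0.982, against 0.936 to 0.956 between the pairs and 0.926 to 0.963 between the models. Genes are not independent replicates in these values. Summed over 11 marker genes, microglia and macrophage RNA was at 17746 and 21926 CPM in NPCTKO libraries 1 and 2 and at 441 and 2833 CPM in libraries 3 and 4, although all 4 were sorted. Results that change without either pair are given with their values. Transcripts of the targeted *Trp53* and *Nf1* were read in all 7 libraries, and such counts do not show whether a gene was edited.

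In the comparison of the models, *Sox10*, *Sox8*, *Sox6* and *Sox3* were lower in NSCHRas-shp53, and no member was called higher. By edgeR's quasi-likelihood test with Benjamini-Hochberg adjustment over all 16091 genes tested, 13.1% of genes were called, 5.28% lower and 7.77% higher in NSCHRas-shp53. Of the 9 members tested, 4 were called lower, 0 higher and 5 were not called. DESeq2 likewise called 4 lower and 0 higher, but it called more genes in all, 1852 lower and 2179 higher. At an unadjusted p under 0.05 from edgeR, 1 member (*Sox9*) was higher, and 4881 genes passed in either direction. The members had a median log2 difference of -1.34, against -0.10 over all genes. The CPM ranges of the models did not overlap for 5 members, 4 of them lower and 1 higher, against 31.3% of all genes, 14.9% lower and 16.3% higher. In bulk libraries, fewer cells of a type and less RNA per cell cannot be told apart.

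**Figure D1:**
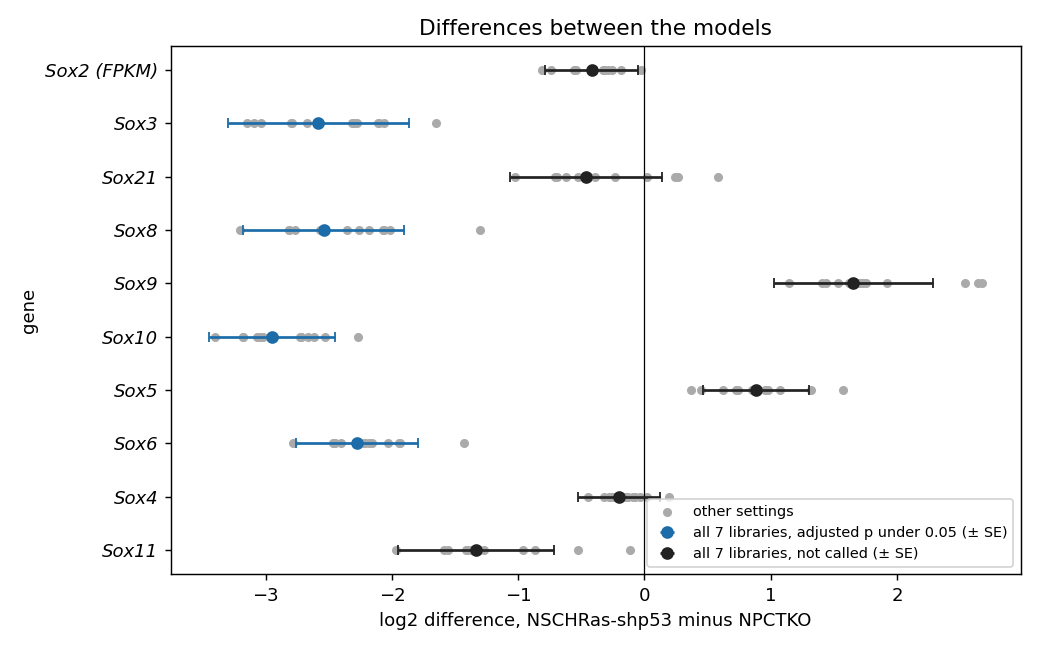
Log2 difference between the models for each SOX gene (x axis, NSCHRas-shp53 minus NPCTKO), with bars of 1 SE for the fit on all 7 libraries and grey points for the other settings tried, including fits without a library. *Sox2* is from FPKM and the other genes from counts. *Sox10*, *Sox8*, *Sox6* and *Sox3* lie between -2.95 and -2.28 and *Sox9* at 1.66.

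*Sox10* (ENSMUSG00000033006.10), the regulator of oligodendrocyte fate and myelin genes, is on chromosome 15 of mm10 (79154913 to 79164490). Its level was 984, 964, 569.5 and 347 CPM in NPCTKO libraries 1 to 4, and 113, 103 and 62.7 CPM in NSCHRas-shp53 libraries 1 to 3. The lowest NPCTKO library was thus above every NSCHRas-shp53 library, and libraries 1 and 2 stood well above 3 and 4. The means were 716 ± 311 CPM (SD, n = 4) and 92.9 ± 26.7 CPM (SD, n = 3), a log2 difference of -2.95 (SE 0.50, adjusted p = 0.010 from edgeR). Without NSCHRas-shp53 library 2 or 3 the adjusted p was 0.054 and 0.061. Without NPCTKO libraries 1 and 2 the difference was -2.27 (adjusted p = 0.013 from edgeR), and without libraries 3 and 4 it was -3.40 (adjusted p = 0.00074). The fit without libraries 3 and 4 called 8951 genes, against 2101 with all 7 libraries, so a small adjusted p is common in it.

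*Sox8* (ENSMUSG00000024176.10), which shares targets with *Sox10* in oligodendrocytes, is on chromosome 17 (25565892 to 25570686). Its NPCTKO libraries were at 206, 297, 59.3 and 79.5 CPM, against 29.4, 37.2 and 16.003 CPM in NSCHRas-shp53. The models did not overlap, and NPCTKO libraries 1 and 2 were again the highest. The means of 160.4 ± 112 CPM (SD, n = 4) and 27.5 ± 10.7 CPM (SD, n = 3) gave a log2 difference of -2.54 (SE 0.64, adjusted p = 0.037 from edgeR). The call was lost when any NSCHRas-shp53 library was left out (adjusted p from 0.10 to 0.16 from edgeR), without NPCTKO library 1 (0.071) or 2 (0.064), and without both of these, when the difference was -1.30 (adjusted p = 0.059).

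*Sox9* (ENSMUSG00000000567.5), a driver of gliogenesis kept on in astrocytes and adult neural stem cells, went the other way among the libraries. Located on chromosome 11 (112782224 to 112787760), it stood at 34.1, 21.7, 22.8 and 129.7 CPM in NPCTKO, against 162, 173 and 158 CPM in NSCHRas-shp53. NSCHRas-shp53 libraries were close together and above every NPCTKO library, and NPCTKO library 4 came near them. The means were 52.1 ± 52.0 CPM (SD, n = 4) and 164 ± 7.96 CPM (SD, n = 3), and the log2 difference of 1.66 (SE 0.63, adjusted p = 0.12 from edgeR) was not called. Without NPCTKO library 4 it was 2.64 (adjusted p = 0.0070 from edgeR), and without libraries 3 and 4 it was 2.54 (adjusted p = 0.00084), in the fit that called 8951 genes. On FPKM values the difference was 1.92 (SE 0.55), with an adjusted p of 0.04997 from limma, just inside the threshold.

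Within a library, the ratio of 2 genes does not depend on the scaling between libraries. The log2 ratio of *Sox9* to *Sox10* counts was -4.85, -5.47, -4.64 and -1.42 in NPCTKO libraries 1 to 4, and 0.51, 0.75 and 1.33 in NSCHRas-shp53 libraries 1 to 3. *Sox10* counts were thus above *Sox9* counts in every NPCTKO library and below them in every NSCHRas-shp53 library. The mean ratio was 4.96 higher in NSCHRas-shp53 (exact permutation test over 35 splits, two-sided, p = 0.057, adjusted over 4 ratios 0.11). The smallest p this design allows is 0.029. The ratio of *Sox8* to *Sox10* overlapped between the models, from -3.26 to -1.70 in NPCTKO and from -1.97 to -1.46 in NSCHRas-shp53, a difference of 0.54 (exact permutation p = 0.26, adjusted 0.34) that ran from 0.23 without NPCTKO library 3 to 0.76 without NPCTKO library 2. Counts of 2 genes also differ by transcript length. In FPKM, the log2 ratio of *Sox9* to *Sox10* was from -5.76 to -1.87 in NPCTKO, and 0.03, -0.04 and 0.81 in NSCHRas-shp53 libraries 1 to 3. Per length, *Sox10* was thus slightly above *Sox9* in NSCHRas-shp53 library 2.

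*Sox6* (ENSMUSG00000051910.13), which holds oligodendrocyte precursors back from maturation, was called as well. Located on chromosome 7 (115470872 to 116038796), it stood at 138, 133, 405 and 310.2 CPM in NPCTKO, against 61.1, 47.1 and 44.1 CPM in NSCHRas-shp53. Here NPCTKO libraries 3 and 4 were the highest, unlike for *Sox10* and *Sox8*, and the models did not overlap. The means were 246 ± 134 CPM (SD, n = 4) and 50.8 ± 9.07 CPM (SD, n = 3), a log2 difference of -2.28 (SE 0.48, adjusted p = 0.021 from edgeR). The adjusted p from edgeR was between 0.069 and 0.11 when any NSCHRas-shp53 library was left out and 0.053 without normalization factors. Without NPCTKO libraries 3 and 4 the difference was -1.43 (adjusted p = 0.0021 from edgeR), in the fit that called 8951 genes.

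*Sox5* (ENSMUSG00000041540.16), its partner in group D, on chromosome 6 (143828425 to 144781977), stood at 11.2, 10.1, 30.8 and 16.9 CPM in NPCTKO and at 29.9, 32.0 and 33.8 CPM in NSCHRas-shp53. NPCTKO library 3 lay inside the NSCHRas-shp53 range. The log2 difference was 0.88 (SE 0.42, adjusted p = 0.20 from edgeR), and 1.32 (adjusted p = 0.035) without that library. The log2 ratio of *Sox5* to *Sox6* counts was -3.62, -3.71, -3.72 and -4.20 in NPCTKO and -1.03, -0.56 and -0.39 in NSCHRas-shp53. The ratio was 3.15 higher in NSCHRas-shp53 and the models lay far apart relative to the spread within each, with the smallest p the design allows (exact permutation p = 0.029, adjusted over 4 ratios 0.11). *Sox6* outnumbered *Sox5* in all 7 libraries. Exons are a small part of the span of both genes, and no source used here says whether intronic reads entered the counts. In FPKM, which counts over exons, the ratio difference was 2.80 (exact permutation p = 0.029, adjusted 0.076).

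**Figure D2:**
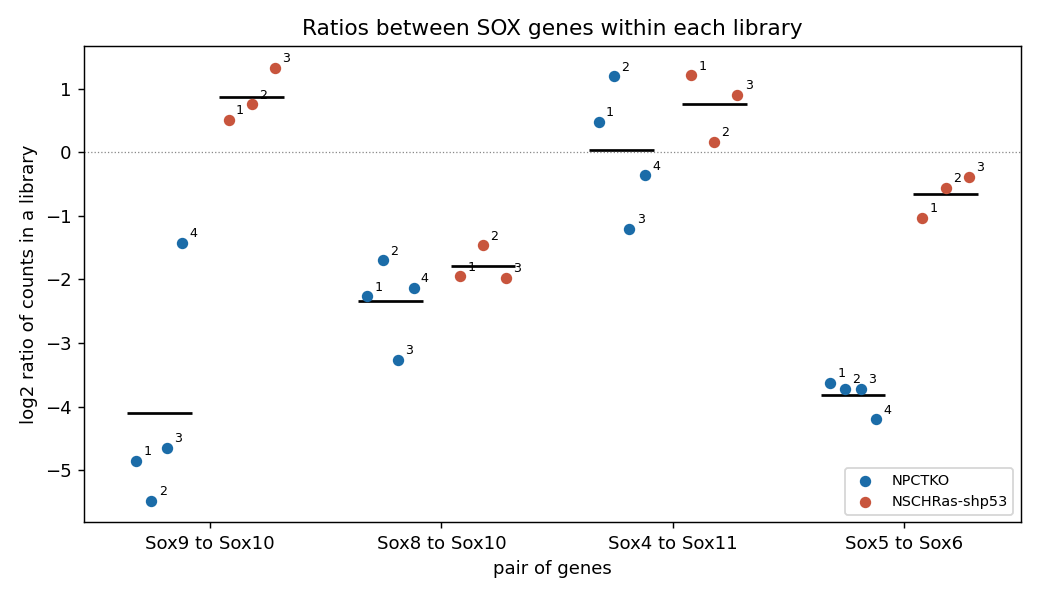
Log2 ratio of the counts of 2 SOX genes within each library (y axis) for 4 pairs of genes (x axis), with NPCTKO in blue, NSCHRas-shp53 in red, the library number beside each point and the mean as a bar. *Sox9* to *Sox10* runs from -5.47 to -1.42 in NPCTKO and from 0.51 to 1.33 in NSCHRas-shp53, and *Sox5* to *Sox6* from -4.20 to -3.62 and from -1.03 to -0.39.

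*Sox3* (ENSMUSG00000045179.9), a group B1 factor of neural progenitors, was the member called by the smallest margin. Located on chromosome X (60891366 to 60893430), it stood at 189.8, 197, 68.8 and 72.4 CPM in NPCTKO and at 36.1, 24.8 and 5.15 CPM in NSCHRas-shp53. Its NPCTKO libraries split into the same pairs as for *Sox10* and *Sox8*, and the models did not overlap. The means were 132 ± 71.0 CPM (SD, n = 4) and 22.03 ± 15.7 CPM (SD, n = 3), a log2 difference of -2.58 (SE 0.72, adjusted p = 0.0496 from edgeR). Of the 7 fits that left out a library, 1 kept the call, that without NPCTKO library 3. Without NPCTKO libraries 1 and 2 the difference was -1.65 (adjusted p = 0.14 from edgeR). The *Sox3* transcript has a GC content at percentile 99.4 of all genes in the count table with a known GC content. Those of *Sox10* and *Sox8* are at percentiles 97.9 and 82.8. With trends in GC content and transcript length removed, *Sox10* (-2.53), *Sox8* (-2.06) and *Sox3* (-2.06) stayed called, with adjusted p of 0.0033, 0.018 and 0.025 from edgeR.

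*Sox2* (ENSMUSG00000074637.7), the group B1 factor most used to mark neural stem cells, did not separate the models. It is on chromosome 3 (34650405 to 34652461), wholly inside *Sox2ot*, and all 11015 genes that form a single interval inside another gene hold 0 counts in this table. Its FPKM was 73.8, 71.0, 134 and 117 in NPCTKO and 51.1, 111 and 62.8 in NSCHRas-shp53. The models overlapped. The means were 99.0 ± 31.5 (SD, n = 4) and 75.1 ± 32.0 (SD, n = 3), a difference of -0.42 on the log2(FPKM + 1) scale (SE 0.37, adjusted p = 0.48 from limma), and from -0.81 to -0.03 over the other fits. The host transcript *Sox2ot* was read at 67.2, 59.7, 204 and 139 CPM in NPCTKO and at 51.4, 62.8 and 44.8 CPM in NSCHRas-shp53, highest in NPCTKO libraries 3 and 4 as *Sox2* was. Its difference of -1.15 (SE 0.47, adjusted p = 0.14 from edgeR) was not called, and its counts may hold reads of *Sox2*.

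*Sox21* (ENSMUSG00000061517.8), the group B2 factor that counters SOX2, was among the lowest members. Located on chromosome 14 (118233232 to 118237030), it stood at 10.8, 7.10, 16.3 and 40.2 CPM in NPCTKO and at 13.7, 17.8 and 8.996 CPM in NSCHRas-shp53. The models overlapped, NPCTKO library 4 was the highest, and the log2 difference of -0.46 (SE 0.60, adjusted p = 0.64 from edgeR) turned to 0.24 without that library. Another gene, *Gm4675*, overlaps 21.0% of its span, and the labels name a kit without strand.

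*Sox4* (ENSMUSG00000076431.4) and *Sox11* (ENSMUSG00000063632.6), the group C factors of immature neurons, were not called. *Sox4*, on chromosome 13 (28948919 to 28953713), stood at 101, 133, 153 and 103 CPM in NPCTKO and at 144, 71.9 and 104 CPM in NSCHRas-shp53. The models overlapped throughout, with a difference of -0.20 (SE 0.32, adjusted p = 0.72 from edgeR) that was 0.19 on FPKM values. *Gm26735*, on the other strand, overlaps 57.4% of its span and holds 71 counts in all libraries together. That low count does not show that the overlap left the counts of *Sox4* whole, and its effect was not tested. *Sox11*, on chromosome 12 (27334264 to 27342574), stood at 72.5, 58.0, 352 and 131 CPM in NPCTKO and at 62.2, 64.2 and 55.7 CPM in NSCHRas-shp53. Library 3 alone held more than the other libraries by a wide margin, and library 2 lay inside the NSCHRas-shp53 range. The difference was -1.34 (SE 0.62, adjusted p = 0.18 from edgeR), -0.53 without NPCTKO library 3, and -1.97 (adjusted p = 0.025) without libraries 1 and 2. The log2 ratio of *Sox4* to *Sox11* counts overlapped between the models, from -1.20 to 1.20 and from 0.16 to 1.21, with a difference of 0.73 (exact permutation p = 0.34, adjusted 0.34) that ran from 0.32 without NPCTKO library 3 to 1.12 without NPCTKO library 2. In FPKM this ratio did not overlap, from 0.68 to 2.56 in NPCTKO and from 2.62 to 3.03 in NSCHRas-shp53, with a difference of 1.22 (exact permutation p = 0.057, adjusted 0.076).

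**Figure D3:**
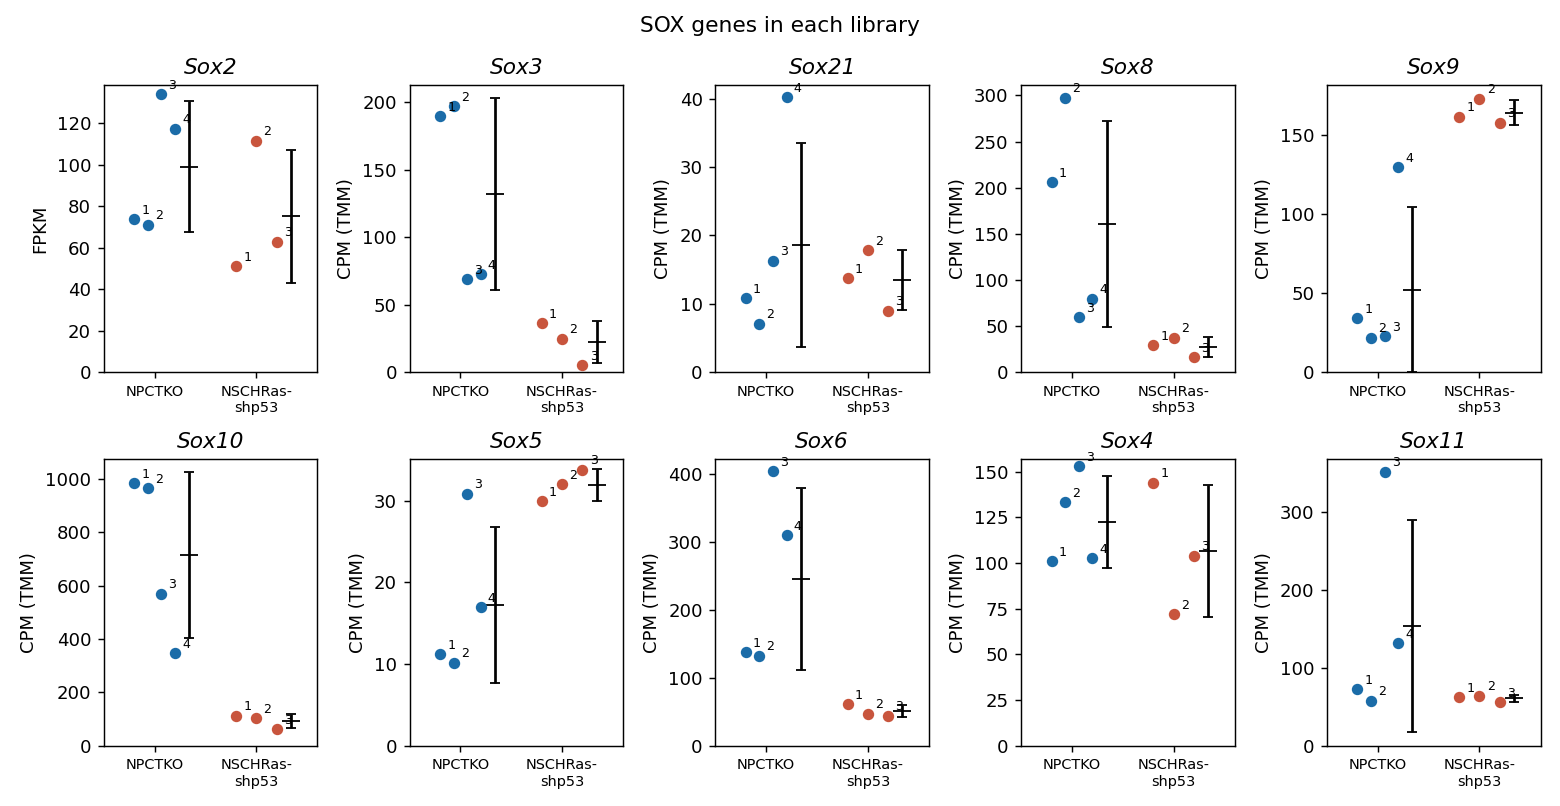
Level of each SOX gene in the 4 NPCTKO (blue) and 3 NSCHRas-shp53 (red) libraries, in CPM after TMM scaling and, for *Sox2*, in FPKM (y axes from 0), with the library number beside each point and mean ± SD beside each group. *Sox10*, *Sox8*, *Sox6* and *Sox3* are higher in every NPCTKO library, *Sox9* is higher in every NSCHRas-shp53 library, and the other genes overlap.

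Per length, *Sox10* led in 3 NPCTKO libraries and *Sox2* or *Sox4* led in NSCHRas-shp53. *Sox10* was at 264, 268, 210.4 and 117 FPKM in NPCTKO, first among the members in libraries 1 to 3 and just behind *Sox2* in library 4. It ranked 3 or 4 in NSCHRas-shp53, at 37.8, 40.1 and 22.6 FPKM. Of the summed FPKM of the 10 genes, *Sox10* took 49.9, 47.7, 36.2 and 27.5% in NPCTKO and 15.3, 14.1 and 11.1% in NSCHRas-shp53. *Sox9* took 1.48, 0.880, 1.06 and 7.53% in NPCTKO and 15.6, 13.7 and 19.4% in NSCHRas-shp53. *Sox9* thus ranked 8 of 10 in NPCTKO libraries 1 to 3 and 5 in library 4, and 3 or 4 in NSCHRas-shp53. *Sox2* took 13.9, 12.6, 23.0 and 27.5% against 20.7, 39.2 and 30.9%, and *Sox4* 6.52 to 13.6% against 16.2 to 27.9%. *Sox5* and *Sox21* were lowest in most libraries, from 1.37 to 9.82 FPKM. Shares within a sum are bound to each other, and they were not tested. By mean FPKM, the order in NPCTKO was *Sox10* (215 ± 70.4), *Sox2* (99.0 ± 31.5), *Sox4* (50.6 ± 19.4), *Sox3* (49.7 ± 15.8), *Sox8* (47.7 ± 29.6), *Sox6* (22.5 ± 9.02), *Sox11* (20.9 ± 19.3), *Sox9* (12.8 ± 12.9), *Sox21* (4.50 ± 3.82) and *Sox5* (2.02 ± 0.745; SD, n = 4). Here any 2 of *Sox4*, *Sox3* and *Sox8* differed by less than the larger of their SDs, as did any 2 of *Sox6*, *Sox11* and *Sox9*. So did *Sox8* against *Sox6* or *Sox11*, *Sox21* against *Sox5*, and either *Sox21* or *Sox5* against *Sox9* or *Sox11*. In NSCHRas-shp53 it was *Sox2* (75.1 ± 32.0), *Sox4* (56.0 ± 11.9), *Sox9* (39.0 ± 0.444), *Sox10* (33.5 ± 9.53), *Sox3* (13.2 ± 9.03), *Sox8* (9.44 ± 3.56), *Sox11* (7.73 ± 0.653), *Sox6* (4.52 ± 1.05), *Sox21* (3.82 ± 1.37) and *Sox5* (2.85 ± 0.518; SD, n = 3). *Sox2* and *Sox4*, *Sox9* and *Sox10*, *Sox6* and *Sox21*, and *Sox21* and *Sox5* differed by less than the larger of their SDs. The same held for any 2 of *Sox3*, *Sox8* and *Sox11*, and for *Sox3* and *Sox6*. On FPKM values limma called 4 members lower (*Sox10*, *Sox6*, *Sox8* and *Sox3*) and 1 higher (*Sox9*) of 10 tested, where 15.5% of 13440 genes were called, 6.67% lower and 8.82% higher. The calls of *Sox9* and *Sox3* were lost with a pseudocount of 0.1 (adjusted p = 0.054 and 0.051 from limma). They were also lost without the filter on low values (0.070 and 0.062), while the others stayed. Without NSCHRas-shp53 library 3, *Sox10* alone stayed called (adjusted p = 0.036 from limma). The FPKM ranges of the models did not overlap for 5 members (*Sox10*, *Sox8*, *Sox6*, *Sox3* and *Sox9*) and for 31.3% of genes.

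**Figure D4:**
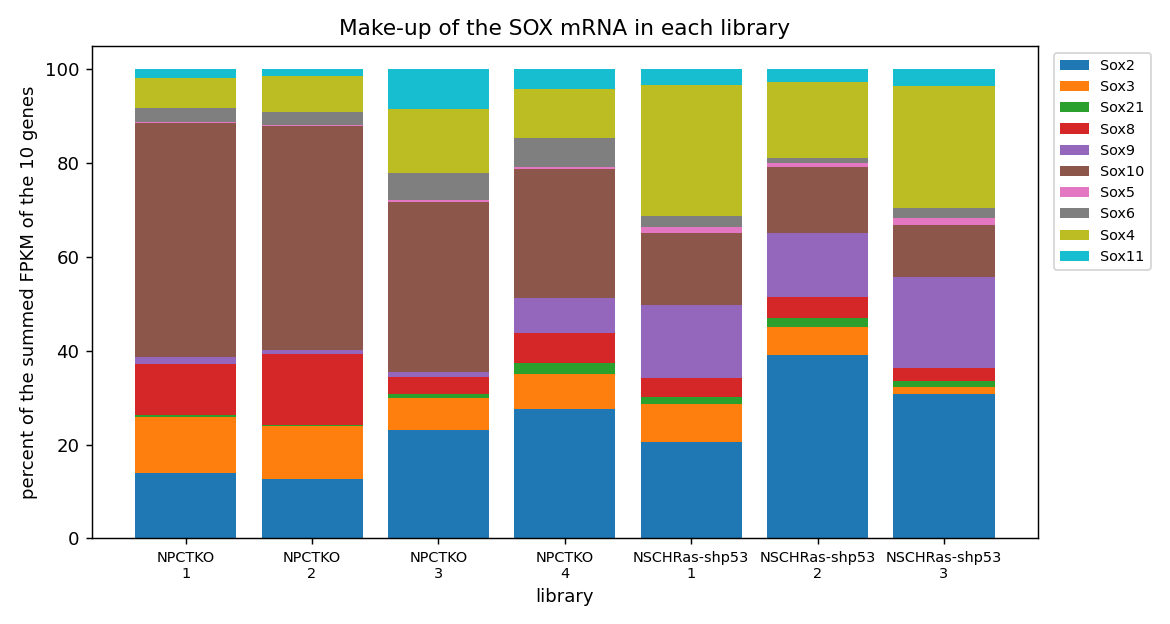
Share of each of the 10 SOX genes in their summed FPKM (y axis, percent) in each of the 7 libraries (x axis). *Sox10* takes 27.5 to 49.9% in NPCTKO and 11.1 to 15.3% in NSCHRas-shp53, and *Sox9* at most 7.53% in NPCTKO and at least 13.7% in NSCHRas-shp53.

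*Sox8* and *Sox6*, which were called, have an entry in the RefSeq promoter table (GRCm38.p6), as do 7 of the 10 members. The 250 bases before the start are printed for both, 5′ to 3′ on the gene's strand, with matches to ACAAAG or its reverse complement CTTTGT, a SOX-type site, in capitals. *Sox8* is at chr17:25570687-25570936 and *Sox6* at chr7:116038745-116038994, the most upstream of its starts, both on the minus strand.
Sox8: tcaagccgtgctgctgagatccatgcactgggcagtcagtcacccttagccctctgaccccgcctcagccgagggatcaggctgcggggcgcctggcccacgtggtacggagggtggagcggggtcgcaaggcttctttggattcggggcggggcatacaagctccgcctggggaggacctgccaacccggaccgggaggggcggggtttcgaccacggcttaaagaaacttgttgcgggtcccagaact
Sox6: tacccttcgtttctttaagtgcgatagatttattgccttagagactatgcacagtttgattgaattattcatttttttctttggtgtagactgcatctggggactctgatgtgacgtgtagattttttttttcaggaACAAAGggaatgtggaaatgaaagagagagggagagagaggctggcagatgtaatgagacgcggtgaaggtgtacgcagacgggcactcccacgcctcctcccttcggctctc
The *Sox8* window holds neither this motif nor ACAAT (reverse complement ATTGT), and the *Sox6* window holds ACAAAG in 1 place. Of 32851 promoters of the same length in the table, 16.5% hold ACAAAG and 27.7% hold ACAAT on either strand. The windows also differ in base composition, with a GC content of 65.6% in *Sox8* and 45.2% in *Sox6*.

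Among the members, the profiles over the 7 libraries lay closest for *Sox8* and *Sox10*. The root mean square difference of log2(CPM + 1), each gene centred on its own mean, was 0.53 for this pair, 0.55 for *Sox3* and *Sox10*, 0.56 for *Sox3* and *Sox8*, and 0.66 for *Sox6* and *Sox11*. The same measure over 10870 genes with a mean CPM of at least 10 gave the genes nearest to *Sox10*, *Sox9* and *Sox11*, as a description over 7 libraries. Nearest to *Sox10* were *Cenpm* (0.26), *Cdc20* (0.28), *Fam89a* (0.30), *Mcm5* (0.30) and *Matn4* (0.31). *Cenpm*, a centromere protein gene, was at 25.5, 25.9, 17.2 and 14.8 CPM in NPCTKO and at 2.79, 3.04 and 1.56 CPM in NSCHRas-shp53. Nearest to *Sox9* were *Lrig1* (0.22), *Egfr* (0.36), *Fosl1* (0.36), *Cntnap1* (0.36) and *Acsbg1* (0.39). *Lrig1*, a membrane protein that restrains EGF receptor signalling, was at 81.6, 52.1, 66.7 and 228 CPM in NPCTKO and at 341, 316 and 341 CPM in NSCHRas-shp53. Nearest to *Sox11* were *Stk32a* (0.23), *Ranbp17* (0.27), *Mcm4* (0.27), *Sox2ot* (0.27) and *Grik2* (0.28), with *Stk32a* at 106 CPM in NPCTKO library 3.

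Genes that work with SOX10 in the oligodendrocyte lineage were lower in NSCHRas-shp53 where called. Of 25 such genes tested, edgeR called 5 lower and 0 higher (9 lower and 0 higher at an unadjusted p under 0.05, 8 and 0 by DESeq2), with a median log2 difference of -1.21 against -0.10 over all genes. As a background to this and the later lists, edgeR called 5.28% of all 16091 genes tested lower and 7.77% higher. Of these genes, 4881 had an unadjusted p under 0.05, and DESeq2 called 1852 genes lower and 2179 higher. *Cspg4*, the NG2 proteoglycan of precursors, was at 309.8 to 888 CPM in NPCTKO and 50.7 to 70.1 CPM in NSCHRas-shp53 (-3.31, SE 0.50). *Erbb3*, a neuregulin receptor and SOX10 target, differed by -2.59 (SE 0.49), *Nkx2-2*, a homeodomain factor of the lineage, by -2.30 (SE 0.48), and *Pdgfra*, the receptor for the precursors' growth factor, by -1.74 (SE 0.34). Also called was *Olig2*, the bHLH factor of the lineage, at 269 to 615 CPM in NPCTKO and 53.2 to 126 CPM in NSCHRas-shp53. Their adjusted p ranged from 0.0076 to 0.022 from edgeR. Myelin genes of the list were not among those called. The summed markers of oligodendrocyte precursors, which share genes with this list, were at 3923 to 5403 CPM in NPCTKO and 822 to 1475 CPM in NSCHRas-shp53, and 4 of 8 tested were called lower. Those of mature oligodendrocytes overlapped, at 987 to 6456 and 1159 to 8376 CPM, with 1 of 10 called higher. Those of Schwann cells, which also use SOX10, were at 81.8 to 212 and 68.0 to 123 CPM, with 0 of 4 called by edgeR, at an unadjusted p under 0.05 or by DESeq2. The part of these cell types in the result for *Sox10* was not tested.

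Gliogenic and astrocyte genes around SOX9 were higher in NSCHRas-shp53 where called. Of 23 tested, edgeR called 6 higher and 0 lower (10 higher and 2 lower at an unadjusted p under 0.05, 9 and 1 by DESeq2), with a median of 0.85. *Aqp4*, the astrocyte water channel, was at 0.365 to 8.22 CPM in NPCTKO and 203 to 247 CPM in NSCHRas-shp53. *Slc1a2* and *Slc1a3*, the glutamate transporters, differed by 4.72 (SE 0.63) and 2.66 (SE 0.46), and *Gja1*, the connexin of astrocyte gap junctions, by 4.31 (SE 0.63). Their adjusted p ranged from 0.0051 to 0.011 from edgeR. *Gfap*, which holds 0 counts, was at 19.1 to 86.9 FPKM in NPCTKO and 716 to 1096 FPKM in NSCHRas-shp53 (4.27, adjusted p = 0.0022 from limma). Astrocyte markers, some of them in this list, summed to 153, 253, 84.9 and 265 CPM in NPCTKO libraries 1 to 4 and to 1694 to 2288 CPM in NSCHRas-shp53. Within NPCTKO, library 2 had nearly the same sum as library 4, but single genes differed between them in both directions. *Slc1a2* was at 26.8 CPM in library 2 and 63.5 CPM in library 4, *Slc1a3* at 170 and 349 CPM and *Gja1* at 6.01 and 29.9 CPM. *Aqp4* was at 1.48 and 8.22 CPM. Of the genes named here, *Aldoc* alone went the other way, at 122 and 74.1 CPM, and the sum also holds markers not named. The part of astrocytes of the unsorted tissue in the result for *Sox9* was not tested.

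Neural stem and radial glia genes used with SOXB1 factors were mostly higher in NSCHRas-shp53 where called, with 6 of 23 higher, 1 lower and a median of 0.83. *Emx2*, a cortical patterning factor, was at 0.936 to 2.60 CPM in NPCTKO and 22.2 to 48.9 CPM in NSCHRas-shp53 (4.26, SE 0.47). *Lhx2*, a LIM homeobox factor of the cortex, differed by 1.79 (SE 0.32) and *Nr2e1*, the stem cell receptor TLX, by 1.44 (SE 0.31). *Pou3f1*, a POU factor, differed by -1.33 (SE 0.27). Their adjusted p ranged from 0.0032 to 0.022 from edgeR. *Sox3* thus moved against most of the called genes of this list.

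Neurogenic genes around SOX4 and SOX11 were higher for 6 and lower for 1 of 20 tested, with a median of 0.61. *Igfbpl1*, a gene of newborn neurons, differed by 3.69 (SE 0.43), *Stmn2*, a neuronal tubulin regulator, by 4.96 (SE 0.77), and *Rbfox3*, which encodes NeuN, by 3.42 (SE 0.60), with adjusted p from 0.0037 to 0.011 from edgeR. *Neurod2* was at most 0.181 CPM in NPCTKO, around the floor, and at 1.73 to 20.2 CPM in NSCHRas-shp53. Markers of neurons summed to 44.9 to 79.2 CPM in NPCTKO and 492 to 1443 CPM in NSCHRas-shp53, and 7 of 9 tested were called higher. Their part in the values of *Sox4* and *Sox11* was not tested.

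Other SOX genes were low or did not pass the test on counts, with 0 of 7 tested called by edgeR, 1 higher and 3 lower at an unadjusted p under 0.05, and 1 lower by DESeq2. *Sox12*, the remaining group C gene, was at 104, 115, 20.0 and 43.9 CPM in NPCTKO and at 22.2, 31.7 and 22.01 CPM in NSCHRas-shp53 (-1.48, SE 0.58, adjusted p = 0.13 from edgeR). *Sox7*, *Sox17* and *Sox18*, the group F genes of endothelial cells, differed by 1.96, 1.58 and 2.13, with adjusted p of 0.16, 0.37 and 0.19. *Sox18* was at 0.0521 to 6.71 CPM in NPCTKO and 7.79 to 16.3 CPM in NSCHRas-shp53, and on FPKM values its difference of 2.22 was called (adjusted p = 0.019 from limma). *Sox7* and *Sox17* overlapped between the models. Endothelial markers summed to 47.9 to 323 CPM in NPCTKO and 675 to 1331 CPM in NSCHRas-shp53, with 4 of 10 called higher, and their part in the values of these genes was not tested. *Sox1*, the remaining group B1 gene, has 0 counts as *Sox2* does and was at 0.473 to 1.33 FPKM in NPCTKO and 2.47 to 5.56 FPKM in NSCHRas-shp53 (1.18, SE 0.31, adjusted p = 0.037 from limma). *Sox13*, the remaining group D gene, was at 14.8 to 25.0 and 17.0 to 19.0 CPM (-0.25, SE 0.31, adjusted p = 0.62 from edgeR). *Sox30*, a gene of male germ cells, was at 0.858 to 1.68 and 0.0547 to 0.457 CPM (adjusted p = 0.088 from edgeR), and *Sox14* and *Sox15* were at or near the floor.

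Markers of other cells in the libraries were read as a background to these values. Mural cell markers summed to 22.5 to 40.3 CPM in NPCTKO and 299 to 502 CPM in NSCHRas-shp53, with 6 of 10 called higher. Microglia and macrophage markers overlapped between the models, at 441 to 21926 and 2291 to 6531 CPM, as did those of T cells, at 11.2 to 70.1 and 37.6 to 71.0 CPM. Ependymal markers also overlapped, at 7.29 to 55.9 and 26.8 to 62.4 CPM. Except for *P2ry12*, *Gfap*, *Nefl*, *C1ql1*, *Gpr17* and *Pmp2*, which hold 0 counts and have values in the FPKM table, every marker in these lists had counts in at least 1 library. The part of these cells in the values of the SOX genes was not tested.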

How the data were processed

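Bulk RNA-seq of 4 sorted NPCTKO and 3 unsorted NSCHRas-shp53 libraries was analysed. The members and gene lists were chosen with earlier results of these data known. The authors trimmed the reads (Cutadapt), aligned them to mm10 (TopHat 2.1.1) and deposited raw counts of each gene, with no counting tool named in the sources used here. They also deposited FPKM values from Cufflinks 2.2.1. RNA was isolated with TRIZOL according to the labels and RNAiso Plus according to the methods, and the kit in the labels does not keep strand. The FPKM table has 28538 rows, of which 3767 are unnamed, and rows of the same name were summed (2 for *Sox4*). The summed FPKM ranged from 419433 to 972436, so that FPKM is not scaled alike between libraries.

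Counts were compared with edgeR 4.0.16 in R 4.3.3 (quasi-likelihood test, TMM, filterByExpr, Benjamini-Hochberg adjusted p under 0.05), as NSCHRas-shp53 minus NPCTKO. FPKM values were compared with limma 3.58.1 on log2(FPKM + 1), with FPKM of at least 1 in at least 3 libraries. Fold changes on that scale understate the change of low genes. Ratios of 2 members were compared by exact permutation tests. The edgeR step was tested on simulated data. Named genes were all members, the other SOX genes, for each partner list the 4 genes of smallest p, and the 5 genes nearest in profile to *Sox9*, *Sox10* and *Sox11*. *Olig2*, *Gfap* and the markers with 0 counts were named after their values were seen. Some genes are not reported here. No protein sequences were used here. Alternatives were DESeq2 1.42.0, other scalings, filters and pseudocounts, removal of GC content and length trends (GC content known for 97.4% of genes tested), a replicate block, and leaving out libraries. Rescaling of FPKM by the median of ratios was added after seeing the data.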

Additional observations from a re-analysis of the deposited data

Results flagged for a closer look

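Among 14 groups of 4 NPCTKO libraries tested with Dixon's criterion at its usual critical value, 2 held a library far from the others. Chance flags about 1 in 20 groups if these are independent and normally distributed. Gene levels entered the test without a log, where a high value stands out more, and the log2 ratios reuse the same genes. *Sox9* in NPCTKO library 4 was at 129.7 CPM, against 21.7 to 34.1 CPM in the other NPCTKO libraries, and its gap to the nearest of them was 0.885 of the range. The log2 ratio of *Sox5* to *Sox6* counts was -4.20 in the same library, against -3.72 to -3.62 in the others, with a gap of 0.838 of the range.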

How the results depend on the processing

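Calls between 4 and 3 libraries changed with the library left out. Over all genes, 2101 were called, against 4031 with DESeq2, 1069 with a replicate block and 8951 without NPCTKO libraries 3 and 4. Leaving out a library gave from 539 (without NSCHRas-shp53 library 3) to 2595 (without NPCTKO library 3). Of the members, 4 were called, and 0 to 5 when a library was left out. There were 0 without NSCHRas-shp53 library 2 or 3 (edgeR, with 4 at an unadjusted p under 0.05 each time), 1 without library 1, and 2 without NPCTKO library 1 or 2. Over all genes, 3605 and 3342 had an unadjusted p under 0.05 from edgeR without NSCHRas-shp53 library 2 and 3, respectively. The other settings called 3 to 6 members. Among the members named, the sign turned for *Sox4* (0.192 on FPKM, 0.0239 without NSCHRas-shp53 library 2, and from -0.44 to 0.02 over the fits without a library) and *Sox21* (0.0200 on FPKM, 0.24 without NPCTKO library 4, from -0.71 to 0.24 over the fits without a library, 0.27 with a replicate block, and 0.58 without NPCTKO libraries 3 and 4), neither of them called. The cause was not tested. With GC content and length trends removed, *Sox11* was called (-1.40, adjusted p = 0.042 from edgeR). *Sox10* was called in 15 of 17 alternatives, *Sox6* in 12, *Sox8* in 11, *Sox3* in 10 and *Sox9* in 4, each with the same sign throughout. Apart from the fit on FPKM values, the fits that called *Sox9* all lacked NPCTKO library 4. *Sox2* was not called in any fit. The median difference over all genes was -0.10 with TMM and 0.09 without normalization factors.

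Whether the replicate numbers pair the libraries is not given. Deviations of same-numbered libraries correlated at 0.27, -0.19 and 0.18, which cannot decide it, as the deviations follow the split among NPCTKO libraries. NSCHRas-shp53 library 1 correlated at 0.27 and 0.34 with NPCTKO libraries 1 and 2, and at -0.31 and -0.25 with libraries 3 and 4. In the replicate block fit, NPCTKO library 4 has no partner and was left out. There *Sox9* was called (2.67, adjusted p = 0.019 from edgeR) and *Sox6* was not (-1.94, adjusted p = 0.075), so that 4 members were called. *Sox2* was at -0.32 with the block. The ratios differed by 4.50 to 5.85 for *Sox9* to *Sox10* and by 3.02 to 3.34 for *Sox5* to *Sox6* when a library was left out, in designs too small for the test to pass.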
